A study of Mus musculus with 6 samples.

Results

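The genes described here are 58 mouse genes of the fibroblast matrix: 29 collagen genes, 5 lysyl oxidases and 24 other genes of the matrix or the fibroblast surface and cytoskeleton. They were taken from a named gene list, with no measured value in its rule but with earlier results of these data known, out of 21887 protein-coding genes with a position in RefSeq GRCm38.p6, and all 58 were found there. The question was where FLAG-tagged Onecut3, a CUT homeobox transcription factor, gave ChIP-Seq peaks at these genes. Mouse embryonic fibroblasts (MEFs) of strain C57BL/6 expressed Onecut3 from a retroviral, doxycycline-inducible construct (Onecut3 OE, 100 ng/mL doxycycline), and chromatin was recovered with the ANTI-FLAG M2 antibody in 3 replicates. An input and an IgG library of the induced cells and a FLAG library of control cells without doxycycline, 1 each, were not analysed here, so FLAG signal without Onecut3 was not subtracted. Onecut3 was forced from a construct rather than from its own gene. No source states that the 3 replicates came from separate cultures, so the spread between them may be technical. Peak lists hold no expression values, so the fibroblast markers among the 58 genes could not be used to check the cell type.

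Fibrillar collagens such as types I and III form the cables of connective tissue, and type IV collagens form the mesh of basement membranes. Lysyl oxidases crosslink collagen and elastin, fibrillin microfibrils carry elastin, small proteoglycans coat collagen fibrils, and matrix metalloproteinases and their TIMP inhibitors set how fast matrix is removed. Many of these genes are among the most strongly transcribed in cultured fibroblasts, whereas cartilage collagens such as types II, IX and X are usually silent there.

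The 3 lists held 31600, 12856 and 24822 peaks in replicates 1, 2 and 3. The authors called peaks in each replicate separately, by the peak names against the input. Each peak has a fold enrichment (fragment pileup at the summit over the local background, 1 added to both), a p-value and a q-value (the p-value adjusted over the genome). The lists reach down to weak peaks with no limit on q. They do not give read numbers, so the depth is unknown. Joining peaks that overlapped by at least 1 bp gave 50844 regions, of which 5114 held a peak in all 3 lists and are called shared regions below. The median over all shared regions of the mean fold of the 3 lists was 4.12.

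A shared region lay inside 3 of the 58 matrix genes or 5.17%, against 9.53% of all protein-coding genes. Shared regions reached within 3 kb of either gene end at 6 of the 58 (10.3%), against 5.32% of all genes. With both places counted, 8 of the 58 genes (13.8%) had a shared region inside or within 3 kb, against 11.5% of all genes. These 8 were Col3a1, Col18a1, Loxl1, Loxl2, Fbn1, Thbs1, Vim and Thy1. Within 100 kb a shared region was found for 29 of the 58 genes (50.0%), against 40.6% of all genes.

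Matrix genes are long, with a median span of 42.4 kb against 17.2 kb for all genes, and long genes hold more regions. When all protein-coding genes were weighted by 4 span classes as in the matrix genes, 14.7% had a shared region inside, 5.99% near an end, 16.6% in either place and 44.5% within 100 kb. The share of matrix genes with a shared region inside was below both values for all genes, and the share near a gene end was above both. Both rest on few genes. With replicate 1, 2 or 3 left out and a peak required in both other lists, a region lay inside 6, 10 or 6 matrix genes (10.3%, 17.2% or 10.3%), against 11.3%, 14.5% or 12.2% of all genes, so without replicate 2 the order turned round. Near an end, a window of 1 kb in place of 3 kb left 2 matrix genes, or 3.45% against 3.29%. With a q of at most 0.05 required in every list, Col3a1, Fbn1, Loxl1 and Loxl2 were left of the 8 genes, against 7.55% of all genes. No test was made of these shares, because the genes were listed with earlier results of these data known.

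**Figure D1:**
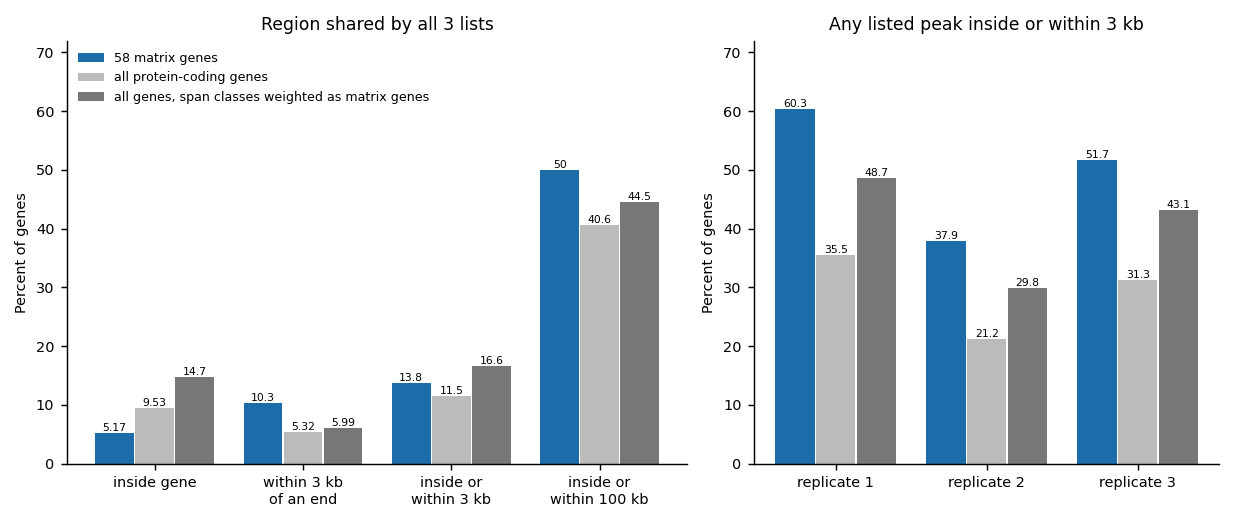
The left panel plots the percent of genes with a region shared by all 3 lists, and the right panel the percent with any listed peak inside the gene or within 3 kb, in each replicate. Blue bars are the 58 matrix genes, light grey bars all protein-coding genes and dark grey bars all genes with span classes weighted as in the matrix genes. Matrix genes stand at 5.17% against 9.53% inside the gene and at 10.3% against 5.32% near an end.

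Within single lists, peaks were frequent at matrix genes. Inside the gene or within 3 kb, replicate 1 had a peak at 35 of the 58 genes (60.3%) against 35.5% of all genes. Replicate 2 had one at 22 (37.9%) against 21.2%, and replicate 3 at 30 (51.7%) against 31.3%. The mean was 50.0% ± 11.3 in matrix genes and 29.3% ± 7.38 in all genes (SD, n = 3 lists). The difference was 24.8, 16.8 and 20.4 percentage points, above 0 in all 3 lists (exact sign-flip permutation test over lists, two-sided, p = 0.25, which is the smallest p that 3 lists allow). These shares were not weighted by span, and the genes were listed with earlier results known, so the test decides nothing about the set. With the span classes weighted, all genes stood at 48.7%, 29.8% and 43.1% in replicates 1, 2 and 3, so the gap narrowed but kept its direction. This narrower gap was not tested. Among strong peaks, with a -log10 q of at least 5, the mean was 4.02% ± 2.63 (SD, n = 3 lists) in matrix genes and 4.63% in all genes. These shares rest on few matrix genes and were not weighted by span, so they do not decide whether a gap exists there.

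Peaks at matrix genes were mostly found in 1 list, as were those at all genes. Of 134 regions inside the 58 genes or within 3 kb, 107 had a peak in 1 list, 19 in 2 lists and 8 in all 3. These are 79.9%, 14.2% and 5.97%, against 71.6%, 16.8% and 11.5% of the 25819 regions at all genes. Replicate 1 had 80 peaks at the matrix genes, and a q of at most 0.05 was reached by 27.5% of them against 36.5% of its peaks at all genes. In replicate 2 this was 55.2% of 29 peaks against 73.1%, and in replicate 3 it was 41.9% of 62 peaks against 50.5%. The median fold was 3.03 against 3.05 in replicate 1, 3.38 against 3.87 in replicate 2 and 3.18 against 3.22 in replicate 3. Fewer of the peaks at matrix genes passed the q limit in each list, while the median folds were close in replicates 1 and 3. No test was made of this.

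Per length of gene, shared regions were sparse in the matrix genes. The 58 spans together cover 4.11 Mb and held 3 shared regions, or 0.729 per Mb, against 2.60 per Mb over 1032 Mb of all protein-coding genes. Regions with a peak in 2 lists ran the other way, at 4.62 per Mb against 3.81 per Mb, as did regions of 1 list, at 23.8 per Mb against 16.3 per Mb. Peaks of a single list averaged 11.8 ± 6.31 per Mb in the matrix genes and 10.6 ± 4.16 per Mb in all genes (SD, n = 3 lists). By list it was 17.3 against 14.3 per Mb in replicate 1, 4.86 against 6.08 in replicate 2 and 13.1 against 11.3 in replicate 3. The direction thus differed between lists, and no test was made. The shared density rests on few regions and on what sharing means. With replicate 1, 2 or 3 left out and a peak required in the other lists, it was 1.70, 3.65 or 1.46 per Mb, against 3.31, 4.65 or 3.61 per Mb in all genes.

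**Figure D2:**
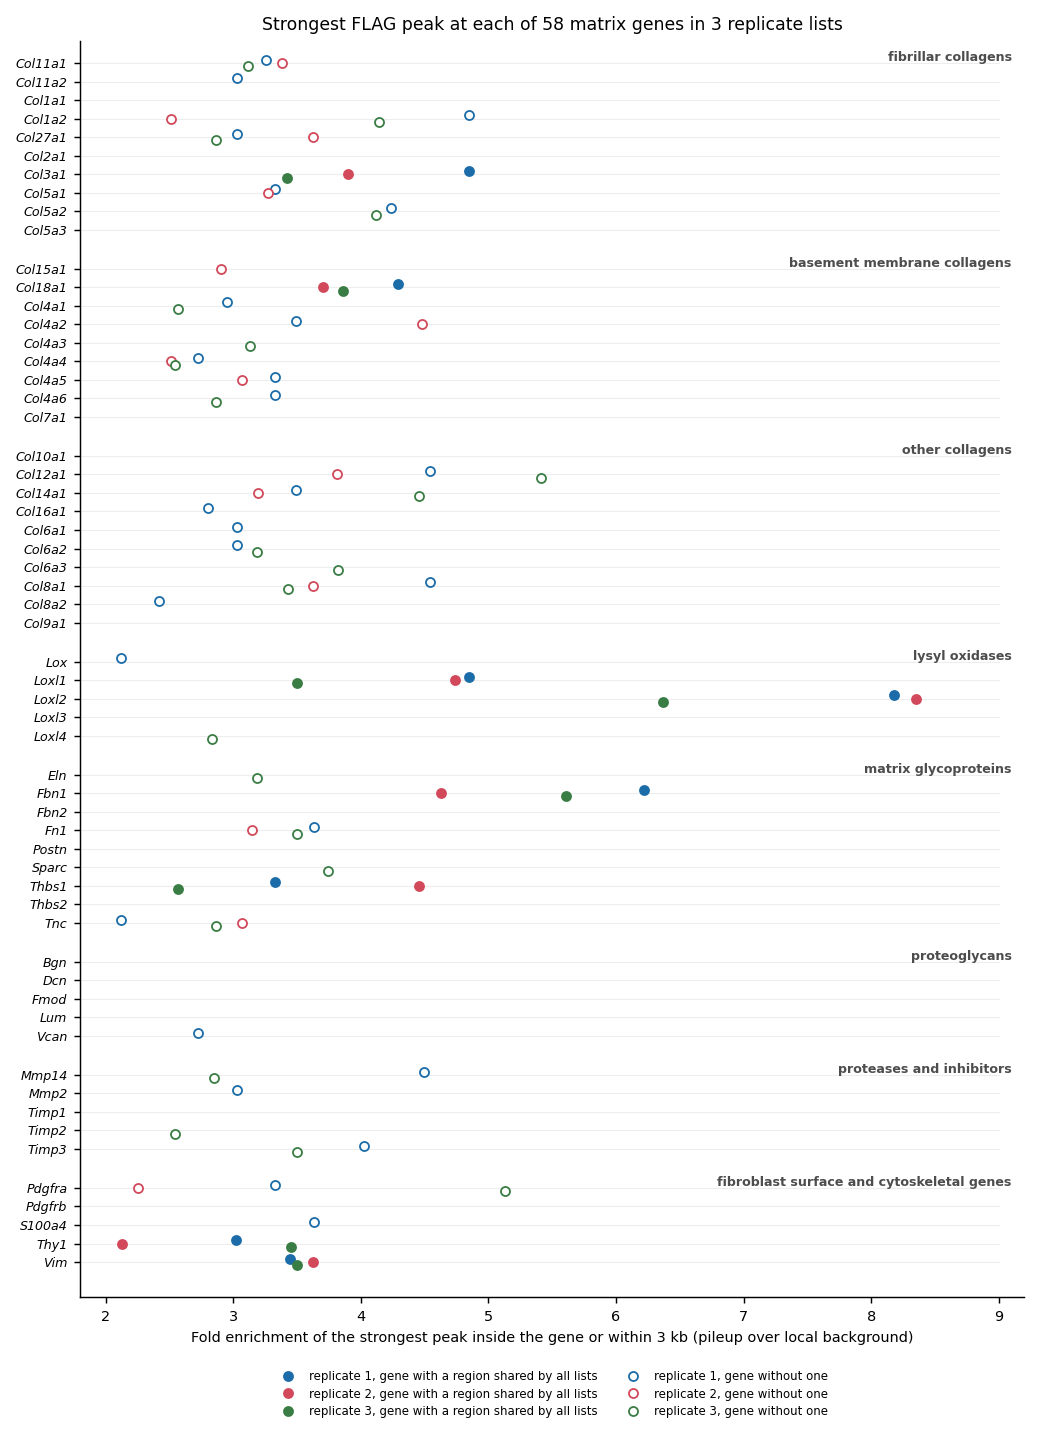
The horizontal axis gives the fold enrichment of the strongest listed peak inside each gene or within 3 kb, by gene and by replicate (colours), with genes grouped by class. Filled points mark the 8 genes with a region shared by all lists (the strongest peak of a list need not be the shared one), open points the others, and 16 genes have no point because no list had a peak there. Loxl2 and Fbn1 have the highest folds, and 4 of 5 proteoglycan rows are empty.

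Of all genes, 11.5% had a shared region inside or within 3 kb, and among the fibrillar collagens 1 of 10 genes did. This was Col3a1, which encodes the chain of type III collagen in skin, vessels and hollow organs. Its region (chr1:45308988-45309291) lay 2.25 kb upstream of the listed transcription start. The fold was 4.84, 3.90 and 3.42 in replicates 1, 2 and 3, with a q of at most 0.05 in each list. The mean fold of 4.05 ± 0.73 (SD, n = 3 lists) ranked 2730 of 5114 shared regions, near the middle. The one listed peak within Col3a1 itself was in replicate 1, 27.2 kb past the start, with a fold of 2.42.

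Promoter sequences of 150 bases before the start are shown for Col3a1, and for Vim described below, as reference from RefSeq GRCm38.p6 (plus strand, chr1:45311388-45311537 and chr2:13574161-13574310). No listed peak lay over either, and neither held the letters of the Onecut motif.
Col3a1: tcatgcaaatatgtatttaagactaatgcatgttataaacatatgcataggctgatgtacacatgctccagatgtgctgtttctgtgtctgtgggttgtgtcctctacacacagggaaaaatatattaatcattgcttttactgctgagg
Vim: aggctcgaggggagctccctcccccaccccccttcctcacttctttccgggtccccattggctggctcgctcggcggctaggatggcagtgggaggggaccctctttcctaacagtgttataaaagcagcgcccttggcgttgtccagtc

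The type I collagen genes, which encode the main collagen of bone, tendon and skin, had no shared region this close. Col1a2 had a region 6.65 kb past its start in replicates 1 and 3 with folds of 4.84 and 4.14, and replicate 2 had no peak there. Col1a1 had no listed peak in any list inside the gene or within 3 kb. Col5a2 had 2 regions found in 2 lists, both in replicates 1 and 3, and Col5a1, its partner in type V collagen, had peaks of single lists only.

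Of the 9 basement membrane collagens only Col18a1 had a shared region inside or within 3 kb, against 11.5% of all genes. Type XVIII collagen is the precursor of endostatin. The region (chr10:77159095-77159412) lay inside the gene, 7.28 kb past its most upstream start, with folds of 3.97, 3.70 and 2.51. In replicate 3 its q was 0.404, and the mean fold of 3.39 ± 0.78 ranked 4304 of 5114. A second region in Col18a1 was listed in replicates 1 and 3 only, with folds of 4.29 and 3.86, and so was stronger in those lists than the shared one.

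The 6 type IV genes stand in head-to-head pairs, Col4a1 with Col4a2, Col4a3 with Col4a4 and Col4a5 with Col4a6. None of the 6 had a shared region inside or within 3 kb, against 11.5% of all genes. Col4a1 and Col4a4 each had 1 region found in replicates 1 and 3, with folds below 3. The strongest listed peak at a type IV gene was in Col4a2, with a fold of 4.48 in replicate 2 alone, 63.5 kb past the start.

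None of the 10 other collagens had a shared region inside or within 3 kb, against 11.5% of all genes. However, 4 of these collagens had regions found in 2 lists. Col8a1, the type VIII collagen of vessel walls and cornea, had 3 such regions with folds between 2.73 and 4.54, each in a different pair of lists. Col14a1, which binds to the surface of collagen fibrils, had 2 of these regions. Col12a1, of the same fibril-associated class, had 1 in replicates 1 and 2 with folds of 4.54 and 3.82. Col6a2, a type VI collagen of the cell surface microfibrils, had 1 in replicates 1 and 3 with folds of 3.03 and 2.87.

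The lysyl oxidases included the strongest region near any of the 58 genes within 3 kb. It lay 1.30 kb past the higher-coordinate end of Loxl2, which crosslinks collagen IV among other substrates, at chr14:69697131-69697523. Folds of 8.18, 8.35 and 6.37 stood in the lists of replicates 1, 2 and 3, with pileups of 26 and 19 fragments in replicates 1 and 3. The mean of 7.63 ± 1.10 (SD, n = 3 lists) ranked 82 of 5114. The region also lies inside the neighbouring gene R3hcc1, so the peak cannot be assigned to either gene from its position. It was the one region at the 58 genes that still appeared in all lists when a fold of at least 5, or a -log10 q of at least 5, was required.

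Loxl1, which acts on elastin, had a shared region inside the gene (chr9:58310577-58310910), centred 2.47 kb from its higher-coordinate end. The fold was 4.84, 4.73 and 3.50 in replicates 1, 2 and 3, the q was at most 0.05 in each, and the rank was 2048. A second shared region lay 6.86 kb below the lower-coordinate end of Loxl1 and was weaker in replicate 1, with a fold of 2.55. All 5 lysyl oxidases had a shared region inside or within 100 kb, against 40.6% of all genes, but at Loxl2, Loxl3 and Loxl4 each such region overlapped or lay nearer to another gene. For Lox, the founding member, the nearer of its 2 shared regions was 32.0 kb away with folds of 6.17, 6.96 and 4.84.

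Among 9 matrix glycoproteins, Fbn1 and Thbs1 had a shared region inside or within 3 kb, against 11.5% of all genes. Fbn1 encodes fibrillin 1, the microfibril protein mutated in Marfan syndrome, and spans 206 kb on the minus strand. Its shared region (chr2:125392558-125392981) lay 114 kb past the start, with folds of 6.22, 4.63 and 5.61 and a q of at most 0.05 in every list. The mean of 5.49 ± 0.80 ranked 629 of 5114. Fbn1 also held 4 regions found in 2 lists and 11 of a single list. Peaks there were uneven between lists, with 8 in replicate 1, 2 in replicate 2 and 12 in replicate 3.

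Thbs1 encodes thrombospondin 1, an inhibitor of angiogenesis that can activate latent TGF-beta. Its shared region (chr2:118127657-118128524) began 0.523 kb past the higher-coordinate end, with folds of 3.33, 4.46 and 2.56. Only replicate 2 gave a q of at most 0.05, and the rank was 4210. Further shared regions lay 52.3 and 66.7 kb below the gene and had higher mean folds, 4.46 ± 1.60 and 5.13 ± 1.35 (SD, n = 3 lists). Fibronectin, Fn1, had 1 region found in replicates 2 and 3 and 5 regions of a single list, whereas Fbn2 had no peak.

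None of 5 proteoglycans and none of 5 proteases or inhibitors had a shared region inside or within 3 kb, against 11.5% of all genes. Dcn, Lum, Bgn and Fmod, small leucine-rich proteoglycans that bind collagen, had no listed peak in any list there, and Vcan had a single peak of fold 2.73 in replicate 1. No proteoglycan had a shared region within 100 kb either, against 40.6% of all genes. A class of 5 genes is too small to set it apart from these shares. Mmp14, a membrane-bound matrix metalloproteinase, had 3 peaks of single lists. The strongest, with a fold of 4.50 in replicate 1, lay inside Mmp14, and the others lay inside the neighbouring gene Mrpl52. Timp3 had 7 regions, each found in 1 list. All of them also lie inside the gene Syn3, so their position does not assign them to either gene.

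Of the 5 fibroblast surface and cytoskeletal genes, Vim and Thy1 had a shared region within 3 kb. Of all genes, 11.5% had one inside or within 3 kb. The region of Vim, the intermediate filament of mesenchymal cells, lay 1.12 kb past the end of the gene (chr2:13583947-13584639), with folds of 2.95, 3.07 and 3.50. The q was at most 0.05 in replicate 3 only, and the rank was 4674. Replicates 2 and 3 each had a further, weaker peak in this region. The strongest peaks of these lists, whose folds are given, do not overlap each other. Thy1 encodes a fibroblast surface glycoprotein, and its region (chr9:44048672-44049026) began 0.092 kb past the higher-coordinate end. The folds were 3.02, 2.13 and 3.45, the q in replicate 2 was 1, and with rank 4952 it was the weakest region of the 8 genes.

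**Figure D3:**
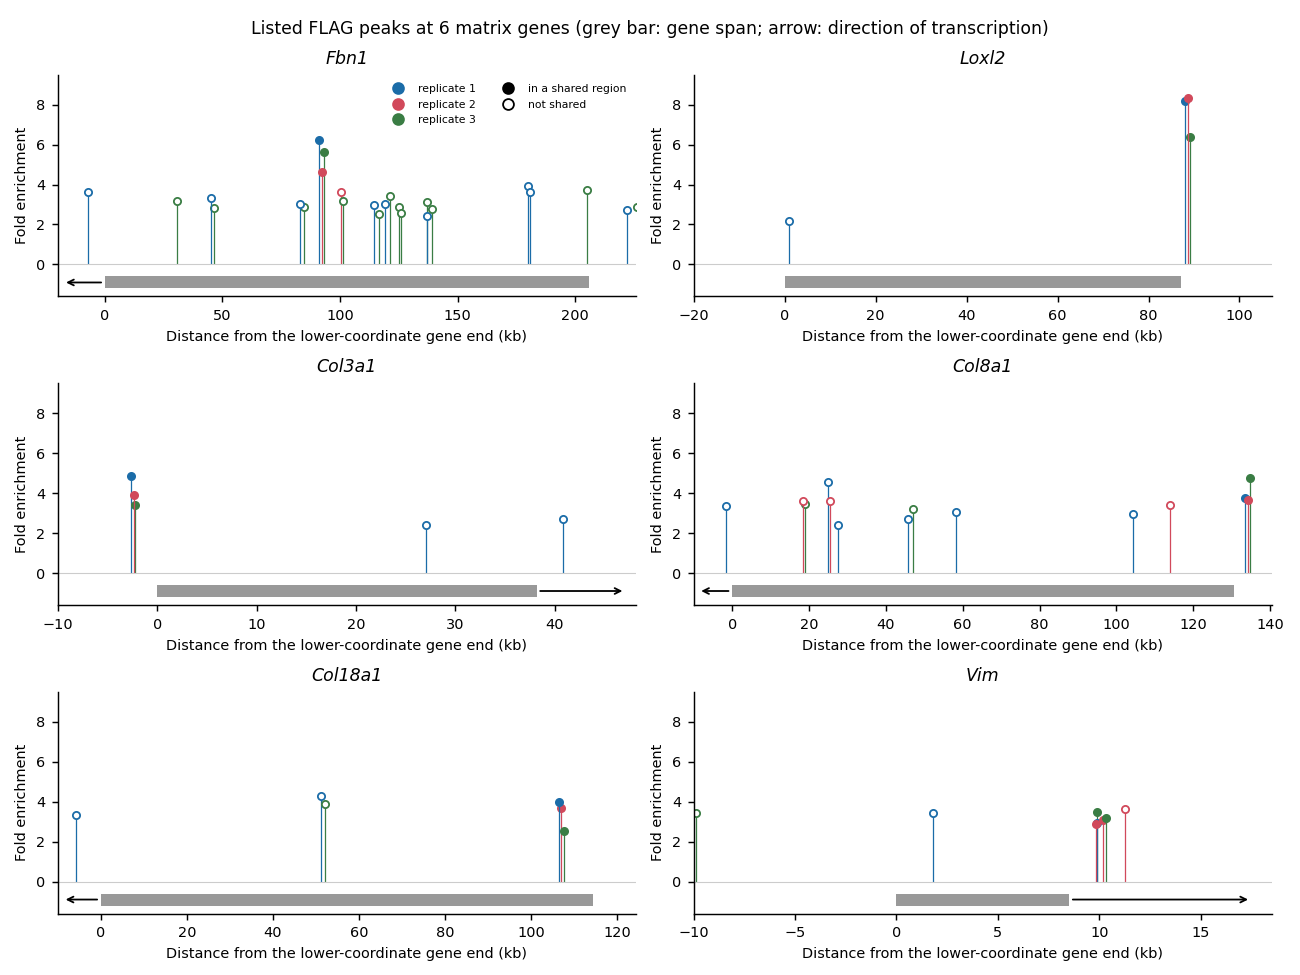
Fold enrichment of every listed peak is plotted against the distance from the lower-coordinate gene end in kb at Fbn1, Loxl2, Col3a1, Col8a1, Col18a1 and Vim. Colours mark replicates, filled points lie in a region shared by all 3 lists, the grey bar is the gene and the arrow its direction where listed. The shared peaks of Loxl2 reach folds of 8.18, 8.35 and 6.37 just past the gene, while those of Vim lie between 2.90 and 3.50.

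A transcription start was listed for 39 of the 58 genes, and for 17492 protein-coding genes in all. Only 1 of the 39, Col3a1, had such a start closer than 3 kb to a shared region, against 4.35% of all genes. Promoter windows, 250 bases before to 50 after a start, lay under a shared region for 0 of 44 in matrix genes and 1.32% of all 32851. A count of 0 of 44 allows a share of up to 6.82%, counting error only, so a difference was not detectable.

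Peaks of 1 list did reach the promoter windows of 2 matrix genes. At Pdgfra, the receptor for platelet-derived growth factor on fibroblast progenitors, replicate 1 had a peak with a fold of 3.33. At Col11a1, a chain of the minor fibrillar collagen XI, replicate 2 had a peak with a fold of 3.38. The sequences are shown because they are the matrix gene promoters that a listed peak overlapped. They are from RefSeq GRCm38.p6 on the plus strand (chr5:75152131-75152280 and chr3:114030290-114030439), and capitals mark the bases under the peak.
Pdgfra: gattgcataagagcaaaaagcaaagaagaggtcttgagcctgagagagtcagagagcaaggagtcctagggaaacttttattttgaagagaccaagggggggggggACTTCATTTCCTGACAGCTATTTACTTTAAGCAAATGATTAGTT
Col11a1: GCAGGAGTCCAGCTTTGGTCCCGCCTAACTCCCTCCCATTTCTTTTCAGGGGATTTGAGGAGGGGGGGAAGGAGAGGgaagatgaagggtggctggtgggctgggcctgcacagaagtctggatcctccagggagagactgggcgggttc

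Promoter windows were searched on both strands for ATCAAT (on the other strand ATTGAT) and ATCGAT, letters of the motif known for Onecut factors. They were found in 0 of the 44 windows of matrix genes (up to 6.82% allowed), against 8.4% of all promoter windows. Over the whole table, 38.4% of the 432 windows under a shared region held the letters, against 8.00% of the other windows. These letters are matches in a 300-base window and not measured sites.

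Beyond 3 kb, 21 further matrix genes had a shared region within 100 kb. The nearest was 3.47 kb upstream of Col8a1, with folds of 3.76, 3.67 and 4.78. Postn, the matricellular protein periostin, had one 4.66 kb past its end with folds of 5.75, 4.35 and 5.98, although no list had a peak within 3 kb of it. For Mmp2, the gelatinase of fibroblasts, the region lay 4.69 kb away inside Lpcat2, with folds of 5.15, 5.01 and 4.14.

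Col6a3, another type VI collagen, had a shared region 12.2 kb past its end with folds of 6.04, 4.06 and 5.06. The region nearest to Loxl3 was 18.2 kb away inside M1ap and weak, with folds of 2.42, 4.18 and 2.87. That of Col8a2 was 25.7 kb upstream with folds of 6.06, 3.90 and 3.13, but lay 1.36 kb from Trappc3. Of these 6 nearest, the regions of Col8a1, Postn, Mmp2 and Col6a3 had a q of at most 0.05 in every list.

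In all, 46 distinct shared regions lay inside or within 100 kb of the 29 genes, 1 of them counted for both Col3a1 and Col5a2. A matrix gene was the nearest gene for 17 regions, and another gene was nearer for 29. Of the 46, 3 lay over a matrix gene, 18 over another gene and 25 over no protein-coding gene. Their median mean fold was 4.28, against 4.12 for all shared regions, with a range of 2.87 to 11.2. In replicate 1 their pileups ran between 8 and 38 fragments and in replicate 3 between 8 and 37, with medians of 15 and 12.

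The strongest of the 46 regions were nearer to other genes. A region 89.2 kb above Col1a1 (chr11:95042264-95042592) had folds of 11.8, 9.74 and 12.1 and ranked 8 of 5114, but lay 0.892 kb from Pdk2. A region 29.3 kb upstream of Col8a2 (chr4:126257033-126257524) had folds of 11.2, 7.51 and 7.96 and ranked 28, and lay 0.713 kb from Map7d1. These values describe the neighbourhoods of the collagen genes and assign no target.

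**Figure D4:**
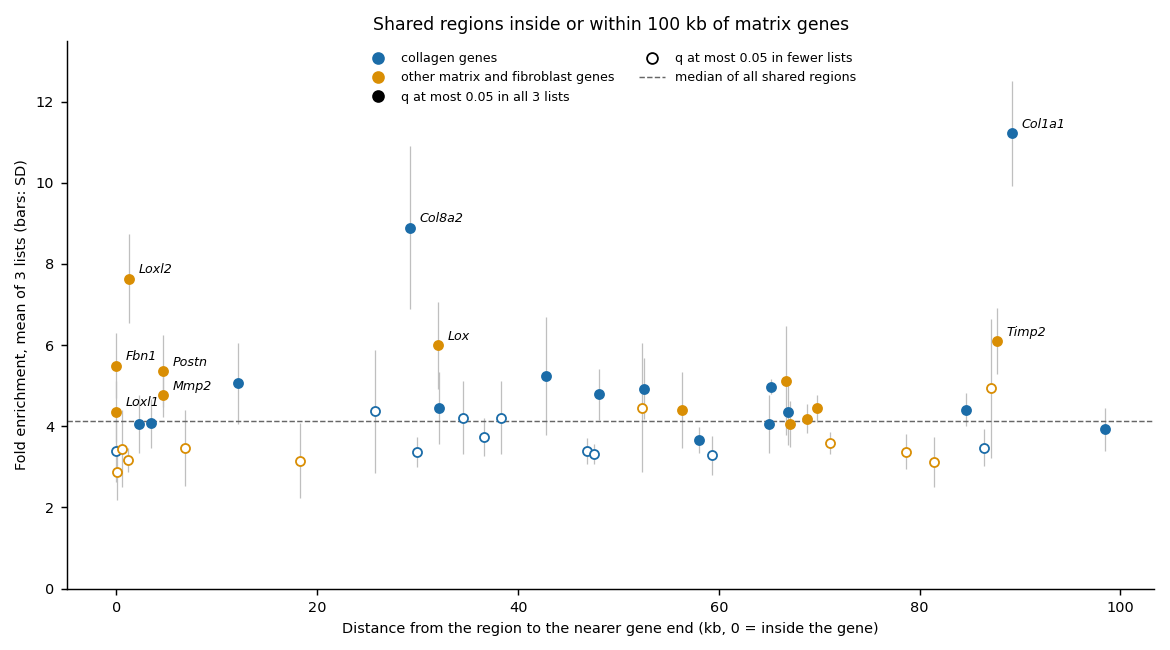
The mean fold of 3 lists (bars, SD) is plotted for each shared region against its distance in kb to the nearer end of the matrix gene, with 0 for regions inside. Blue points are collagen genes and orange points other matrix and fibroblast genes, filled where q was at most 0.05 in every list, and the dashed line is the median of 4.12 over all shared regions. The highest points, at Col1a1 and Col8a2, lie 89.2 and 29.3 kb away, while Loxl2 stands at 7.63 within 3 kb.

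Of the 46 regions, 6 lay over a promoter window, in each case of a gene outside the list, and 3 of these windows held the motif letters. Naxd (48.0 kb above Col4a2) and Uxt (87.1 kb above Timp1) are shown to set beside the matrix gene promoters, which held none. The region over Naxd had folds of 5.36, 4.91 and 4.12, and that over Uxt 6.52, 5.18 and 3.12. The sequences are the 150 bases before the start in RefSeq GRCm38.p6, chr8:11497356-11497505 on the plus strand and chrX:20961979-20962128 on the minus strand, and capitals mark the motif letters.
Naxd: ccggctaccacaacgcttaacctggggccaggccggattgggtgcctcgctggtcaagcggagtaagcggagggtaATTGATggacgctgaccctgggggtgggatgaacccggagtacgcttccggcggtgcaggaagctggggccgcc
Uxt: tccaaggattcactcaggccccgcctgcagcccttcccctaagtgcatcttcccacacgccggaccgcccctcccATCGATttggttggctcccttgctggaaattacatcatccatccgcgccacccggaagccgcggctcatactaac

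No listed peak lay inside or within 3 kb of 16 of the 58 genes (27.6%), against 54.5% of all genes. These shares were not weighted by span, and short genes more often had no peak. Under 10 kb it was 3 of 6 matrix genes, against 79.1% of all genes of that size. It was 11 of 27 at 10 to 50 kb against 53.4%, and 1 of 20 at 50 to 200 kb against 20.6%. Over 200 kb the order turned round, with 1 of 5 against 3.64%. How much of the gap follows from span was not tested. The 16 genes were Col1a1, Col2a1, Col5a3, Col7a1, Col9a1, Col10a1, Loxl3, Postn, Thbs2, Fbn2, Dcn, Lum, Bgn, Fmod, Timp1 and Pdgfrb. Both strongly transcribed fibroblast genes (Col1a1, Dcn) and cartilage collagens (Col2a1, Col9a1, Col10a1) are among them. By textbook knowledge of fibroblasts, 8 of 36 active genes (22.2%) and 3 of 6 silent genes (50.0%) had no peak. The shares of active and silent genes were not weighted by span either, and the difference was not tested. Fbn2 is the longest of the 16 at 202 kb.

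By class, shared regions inside or within 3 kb were found at 2 of 29 collagens (6.90%) and 6 of the 29 other matrix genes (20.7%). With span classes weighted, all genes stood at 19.9% for the collagens and 13.3% for the others. Collagens have a median span of 106 kb and the other matrix genes 26.1 kb. Within single lists the collagens had a peak more often than or as often as the others. The shares were 69.0% against 51.7% of genes in replicate 1, 44.8% against 31.0% in replicate 2 and 51.7% in both in replicate 3. With span classes weighted as in the collagens, all genes stood at 56.9%, 35.4% and 50.7% in replicates 1, 2 and 3. Weighted as in the others, they stood at 40.5%, 24.2% and 35.6%. Unweighted, the difference between collagens and others averaged 10.3 ± 9.12 percentage points (SD, n = 3 lists, exact sign-flip permutation test, two-sided, p = 0.5). The smallest p that 3 lists allow is 0.25, and the 2 classes differ in span, so the test decides nothing about them. With a region required in both remaining lists, 3 collagens and 8 other genes had one inside or within 3 kb without replicate 1, and 5 and 6 without replicate 3. Without replicate 2 the order turned round, with 9 collagens and 6 other genes. All genes, unweighted, stood at 13.8%, 17.2% and 14.7% without replicates 1, 2 and 3.

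Genes known to be active in fibroblasts, from textbook knowledge and not from these data, had a shared region inside or within 3 kb in 7 of 36 cases (19.4%). With span classes weighted, all genes stood at 13.7%. Without replicate 2 it was 11 of 36 active genes and 1 of 6 silent genes, against 17.2% of all genes unweighted. With a q of at most 0.05 it was 4 active genes (11.1%), against 7.55% of all genes unweighted. In the 3 lists together, none of the 6 genes known to be silent in fibroblasts (Col2a1, Col9a1, Col10a1, Col11a2, Col4a3 and Col4a4) had one, and 1 of the 16 genes assigned to neither class did. Within 100 kb it was 19 of 36 active (52.8%), 3 of 6 silent (50.0%) and 7 of 16 unassigned genes (43.8%), against 40.6% of all genes, or 42.9% with span classes weighted as in the active genes. With 6 silent genes a difference between active and silent genes was not detectable.

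Within span classes, a shared region was found inside or within 3 kb at 2 of 6 matrix genes under 10 kb, against 3.85% of all genes of that size. It was 3 of 27 at 10 to 50 kb against 9.35%, 2 of 20 at 50 to 200 kb against 22.5%, and 1 of 5 over 200 kb against 47.7%. The 2 short genes were Vim and Thy1, whose regions were among the weakest.

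In 5 related gene lists the shared regions lay inside genes and none came closer than 3 kb to an end. Of all genes, 5.32% had a shared region that close to an end, or 5.30% to 6.49% with span classes weighted as in these lists. The lists are short, and no test was made of this. Inside or within 3 kb, 11.5% of all genes had a shared region. With span classes weighted as in each list, all genes stood at 15.3% for collagen processing, 16.8% for collagen receptors, 22.3% for laminins and their partners, 27.4% for the further collagens and 10.3% for the epithelial and endothelial markers. In collagen processing 2 of 18 genes had one, the procollagen protease Adamts2 with a mean fold of 5.16 ± 0.60 (SD, n = 3 lists) and the prolyl hydroxylase P4ha3 with 3.59 ± 0.24. Of 7 collagen receptors, Ddr2 reached 5.64 ± 0.97 and the integrin Itga1 3.73 ± 1.37, each with 2 regions. Among laminins and their partners 3 of 15 genes had one, Lamc3 with 5.43 ± 1.14, Lama4 with 4.19 ± 1.37 and Lama1 with 2.18 ± 0.21. Of 15 further collagens it was Col26a1 alone, with 3.68 ± 0.88. Among 12 epithelial and endothelial markers, which mark other cell types, Cdh1 had one with 7.26 ± 1.39, a level close to that of Loxl2. Peaks mark DNA and not RNA, so they do not show whether such cells were present.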

How the data were processed

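ChIP-Seq peak lists of the 3 Onecut3-OE FLAG replicates were used. A feature of the cells that all groups share is not reported here. The build GRCm38 and the tools MACS2 2.1.0, Bowtie2 2.2.6 and deepTools 3.3.2 are named in the submitters' processing notes, with no role given. For each peak the deposited lists hold a fold (a ratio) and the p-value and q-value, both as -log10. The score that the authors deposited beside them follows from the p-value and was used only to check the columns. Pileups were solved from the fold and p-value within a tolerance of 0.001 in -log10 p for replicates 1 and 3 only, since the pileup of replicate 2 seems to have been scaled. A fold depends on depth and background, so the folds of single peaks were compared within a list. Mean folds of the 3 lists were used to rank regions and to describe them beside other regions.

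Gene spans, start sites and promoter windows came from RefSeq GRCm38.p6. The 13 mitochondrial protein-coding genes were left out, and strand was listed for 39 of the 58 genes. Distances for the other 19 are given from the lower- or higher-coordinate end. The genes, classes and related lists were chosen with earlier results of these data known. Named genes were those with a shared region inside or within 3 kb, the 6 nearest beyond that, those without any peak, and up to 4 per related list by mean fold. Other genes were named after their values were seen. Alternatives were a -log10 q or fold of at least 5, an overlap of at least 50% of both peaks, summits within 100 bp, windows of 1, 10 and 50 kb, a basement membrane class of type IV collagens only and leaving out each replicate. The limit of q at 0.05 was chosen after the data were seen. The counting was tested on simulated data. Computing used pandas 2.3.3 and numpy 2.4.6 under Python 3.11.15, tests scipy 1.17.1, and plots matplotlib 3.10.9.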

Additional observations from a re-analysis of the deposited data

How the results depend on the processing

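No samples could be paired across groups, because the 3 replicates form 1 group and the numbers pair no samples. The differences put to the sign-flip test were taken within each list. Over all alternatives, 102 values stayed within 1.5 times the reported value or within 1 SD, and 61 moved. With a -log10 q of at least 5, or a fold of at least 5, both limits left 1 gene near an end, 0 inside, 4 within 100 kb and 0 regions per Mb. All genes stood at 0.864% or 0.818% near an end, 1.22% or 1.19% inside and 7.30% or 7.02% within 100 kb. Their density was 0.255 or 0.248 regions per Mb. By class both limits left 1 lysyl oxidase and 0 fibrillar collagens, basement membrane collagens, matrix glycoproteins, surface and cytoskeletal genes or collagens of any kind, with 1 gene that is not a collagen and 1 active gene. Of all genes, 1.54% or 1.48% had a shared region inside or within 3 kb under these limits. The mean percent of matrix genes with a peak per list was 4.02 under both, against 4.63 and 4.70 for all genes. An overlap of 50% left 1 matrix glycoprotein and 1 surface or cytoskeletal gene, and summits within 100 bp left 1 matrix glycoprotein. All genes stood at 9.59% with the overlap rule and 9.07% with the summit rule.

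With a q of at most 0.05, chosen after the data were seen, 3 genes remained near an end, with 0 basement membrane collagens, 1 matrix glycoprotein, 0 surface or cytoskeletal genes, 1 collagen, 3 genes that are not collagens and 4 active genes. Col3a1, Fbn1, Loxl1 and Loxl2 were the 4. Under this limit all genes stood at 3.59% near an end and 7.55% inside or within 3 kb. A window of 1 kb gave 2 genes near an end (3.45% against 3.29% of all genes), 0 fibrillar collagens, 1 lysyl oxidase, 1 surface or cytoskeletal gene, 1 collagen and 4 active genes. Inside or within 1 kb, all genes stood at 10.4%. A window of 10 kb gave 10 genes near an end (17.2% against 9.84% of all genes), 1 other collagen and 1 protease or inhibitor. Inside or within 10 kb, all genes stood at 14.3%. A basement membrane class of type IV genes alone gave 0.

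Leaving out each replicate in turn and requiring the other lists gave 6 to 10 genes with a region inside and 1.46 to 3.65 regions per Mb. In the same runs it gave 1 to 3 fibrillar, 1 to 3 basement membrane and 1 to 3 other collagens and 3 to 9 collagens. There were 8 to 11 active and 0 to 1 silent genes. In these runs all genes stood at 11.3% to 14.5% inside and 13.8% to 17.2% inside or within 3 kb. The density in matrix genes was below that of all genes, and the percent near an end above it, under all the alternatives run. The percent inside turned above that of all genes without replicate 2, and the cause was not tested. The read depth is unknown, the control FLAG library was not subtracted, and weak peaks were decided by few fragments.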
